A study of Rattus norvegicus with 5 samples.

Results

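The genes described here are the ERK feedback genes: the Sprouty genes Spry1, Spry2 and Spry4, their relative Spred1, the phosphatase genes Dusp1, Dusp4, Dusp5 and Dusp6, and the transcription factor genes Etv4 and Etv5. They were taken by name, and a probe was assigned to a gene when its transcript accession stood in the RefSeq table for rat. Of the 10 listed genes, 9 were matched, by 11 of the 30366 probes; 15167 genes could be read in all. No probe was matched to Spry1, which does not mean that the array lacks one, and no value is given for it. Spry4 and Etv5 had 2 probes each and the other 7 matched genes had 1.

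The series measured RNA from BRL-3A cells, a line derived from Buffalo rat liver, on 5 one-colour Agilent arrays, with 1 array per group. The groups were cells given a lentivirus for Tmub1 overexpression, cells given the negative control of that virus, cells given a lentivirus for Tmub1 knockdown, cells given the negative control of that virus, and normal cells without virus. Transduced cells were harvested after 48 h, and 1 µg of total RNA was labelled with Cy3 for each array. Tmub1 encodes a membrane protein with a ubiquitin-like domain, and the stated purpose was its part in transcription in hepatic cells. The labels used here do not name the promoters, the hairpin sequence or the share of transduced cells. They give no sign of separate cultures within a group, so every difference below compares single arrays and has no replicate check.

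Growth factor receptors activate RAS, which switches on the kinases RAF, MEK and ERK in turn. ERK output includes its own brakes: Sprouty and Spred proteins act on the steps from receptor to RAF, and dual-specificity phosphatases remove the activating phosphates from ERK and related kinases. Etv4 and Etv5 are ETS transcription factors whose transcripts follow FGF and ERK signalling in many tissues, so these genes are often read together as a measure of pathway output. In liver, ERK signalling takes part in hepatocyte proliferation after tissue loss.

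Values are given as levels: the log2 of a probe's processed signal minus the 75th percentile of that array, so 0 is the 75th percentile and 1 unit is 2-fold. Levels were compared between arrays for the same probe, never between genes. Intervals are 95% intervals from the scanner software's error of the spot reading and do not cover variation between cultures. A difference was called when the values lay at least 2.5-fold apart and the scanner software placed the brighter of them well above background. Where the dimmer value was not well above background, only a lower bound of the difference is given.

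Each array held 42877 non-control spots, with none saturated. Median processed signals were 143.9 and 116.4 in overexpression cells and their control, 356.2 and 159.7 in knockdown cells and their control, and 329.4 in normal cells. The normal array was scanned on another day than the 4 transduced arrays, so virus and scan day cannot be told apart in comparisons with normal cells. Tmub1 was 3.65-fold lower in knockdown cells than in their control, with levels of -1.42 and 0.45, and its levels were 0.44 in overexpression cells and 0.37 in their control. This probe did not show more Tmub1 RNA in the cells labelled overexpression, and whether it reads the transgene is not known; the name overexpression cells below follows the label. The labels call the cells hepatocytes. Between 4 and 6 of 8 hepatocyte markers were well above background on an array, and 6 of 6 mesenchymal markers on every array. For the other sets it was 1 to 3 of 3 matched cholangiocyte, 3 to 4 of 4 endothelial, and 3 to 4 of 4 matched macrophage and leukocyte markers. Igf2, the growth factor this line is known to secrete, was well above background throughout.

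Promoter windows are shown first for 4 of the 5 genes called between knockdown cells and their control, because those genes did not move in one direction. The window of the fifth, Etv5, held none of the motifs searched and is not printed. The windows are from RefSeq on build GRCr8 and run from 250 bases before to 50 after the gene's start. For Spry2, which has 2 listed windows, the one with motifs is shown, at chr15:89111877-89112176 on the minus strand, and Spry4 lies at chr18:30702497-30702796 on the minus strand. Dusp1 lies at chr10:17184603-17184902 on the plus strand and Dusp5 at chr1:262543524-262543823 on the plus strand. Capitals mark the motifs found, and all sequences read 5′ to 3′ on the gene's strand.
Spry2: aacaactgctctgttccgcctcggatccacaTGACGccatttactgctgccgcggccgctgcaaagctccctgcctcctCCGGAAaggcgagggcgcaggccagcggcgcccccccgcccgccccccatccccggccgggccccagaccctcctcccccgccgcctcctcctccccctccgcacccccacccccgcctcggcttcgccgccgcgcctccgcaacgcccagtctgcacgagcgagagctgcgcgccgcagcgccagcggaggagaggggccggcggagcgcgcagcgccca
Dusp1: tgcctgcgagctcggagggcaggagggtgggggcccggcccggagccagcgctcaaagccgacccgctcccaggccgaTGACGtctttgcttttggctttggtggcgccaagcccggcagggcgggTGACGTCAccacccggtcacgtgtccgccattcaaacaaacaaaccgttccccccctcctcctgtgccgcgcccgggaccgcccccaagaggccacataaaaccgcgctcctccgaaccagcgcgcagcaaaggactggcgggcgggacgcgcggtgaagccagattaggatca
Spry4: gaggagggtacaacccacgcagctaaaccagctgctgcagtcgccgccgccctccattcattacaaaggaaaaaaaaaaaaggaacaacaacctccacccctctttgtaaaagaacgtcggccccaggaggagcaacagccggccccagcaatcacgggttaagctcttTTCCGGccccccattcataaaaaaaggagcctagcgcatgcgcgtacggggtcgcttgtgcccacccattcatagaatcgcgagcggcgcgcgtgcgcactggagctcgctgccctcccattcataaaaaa
Dusp5: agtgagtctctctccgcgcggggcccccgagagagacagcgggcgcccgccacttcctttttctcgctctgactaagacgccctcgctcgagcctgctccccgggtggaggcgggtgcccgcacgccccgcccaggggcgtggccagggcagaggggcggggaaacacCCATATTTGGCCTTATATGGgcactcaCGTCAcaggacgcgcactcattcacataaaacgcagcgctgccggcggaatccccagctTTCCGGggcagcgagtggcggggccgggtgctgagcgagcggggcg

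The motifs searched on both strands were the cyclic AMP response element TGACGTCA, its core TGACG (which also counts inside the full element), the extended ETS core CCGGAA, the AP-1 site TGANTCA and the CArG box, the site of serum response factor. The 2 genes that were higher, Spry2 and Dusp1, both held the core TGACG, with 1 copy in Spry2 and 3 in Dusp1. In Dusp1 the full element reads TGACG on both strands, so this 1 site counts as 2 of the 3 copies. One of the genes that were lower, Dusp5, held 1 copy too, and 21.2% of the 33469 windows in the table held one. The full element occurred in Dusp1 and in 1.83% of all windows. CCGGAA occurred in Spry2, Spry4 and Dusp5 and in 15% of all windows, and Dusp5 held 2 CArG boxes, found in 1.64% of windows. The AP-1 site was in none of the members' windows and in 7.33% of all. None of these motifs was found in the windows of Spry1, Spred1, Dusp6 and Etv5 or in the other Spry2 window, and Etv4 and Dusp4 had no entry.

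In knockdown cells, 2 of the 9 genes were higher and 3 lower than in the knockdown control, and 4 did not reach 2.5-fold. The inhibitor Spry2 and the phosphatase gene Dusp1 were higher, whereas Spry4, Dusp5 and Etv5 were lower. Across all genes, 18.5% were called in this comparison in either direction, with 1079 higher and 1284 lower; the share of called genes that were higher was 45.7% and lay between 33.5% and 71.2% under other scalings. The median log2 difference of the 9 genes was 0.99, against -0.21 over all 12785 genes that could be called. That median is the value of Etv4, which was not called, and it lay between 0.33 and 1.30 over the settings. Of the 9 genes, 5 were above 0 and 4 below. Spry2 and Dusp1 were also called higher against the overexpression control and against normal cells, the only 2 of the 9 to pass against all 3 control arrays. Of all genes, 7.45% passed against all 3 in one direction. By any amount, Spry2, Spred1, Dusp1 and Etv4 were above all 3 controls, 4 of the 9, as were 25.7% of all genes. The knockdown array was also brighter than both negative control arrays in median signal, as given above; its part in these results was not tested.

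Cell type markers also differed between knockdown cells and their control. Of the 6 mesenchymal markers, Pdgfrb was 4.19-fold lower and Vim 2.66-fold higher, and the other 4 were not called (Col1a1 -0.52, Col1a2 -0.99, Col3a1 -0.78 and S100a4 0.84). Of the 4 endothelial markers, Tek was 3.22-fold higher and the other 3 were not called (Pecam1 0.61, Cdh5 -0.64 and Kdr 1.05). Of the hepatocyte markers, Alb was 4.66-fold lower and was not well above background in knockdown cells. Tf (-1.08), Serpina1 (-0.68), Hnf4a (-0.49) and Afp (at least 1.09) were not called, and Ttr, Apoa1 and Cps1 could not be compared. Krt19 was 5.99-fold lower, Krt7 was at least 4.65-fold higher, and Igf2 differed by -1.58 log2 units. No macrophage or leukocyte marker was called. The summed levels in knockdown cells and their control were -0.07 and 0.88 for 8 hepatocyte, 8.08 and 8.60 for 6 mesenchymal and -3.12 and -2.08 for 3 cholangiocyte markers. They were 1.21 and 0.46 for 4 endothelial markers and 2.70 and 2.97 for 4 of macrophages and leukocytes. The part of these shifts in the results for the ERK feedback genes was not tested. Fewer cells of a type and less RNA per cell cannot be told apart on these arrays.

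**Figure D1:**
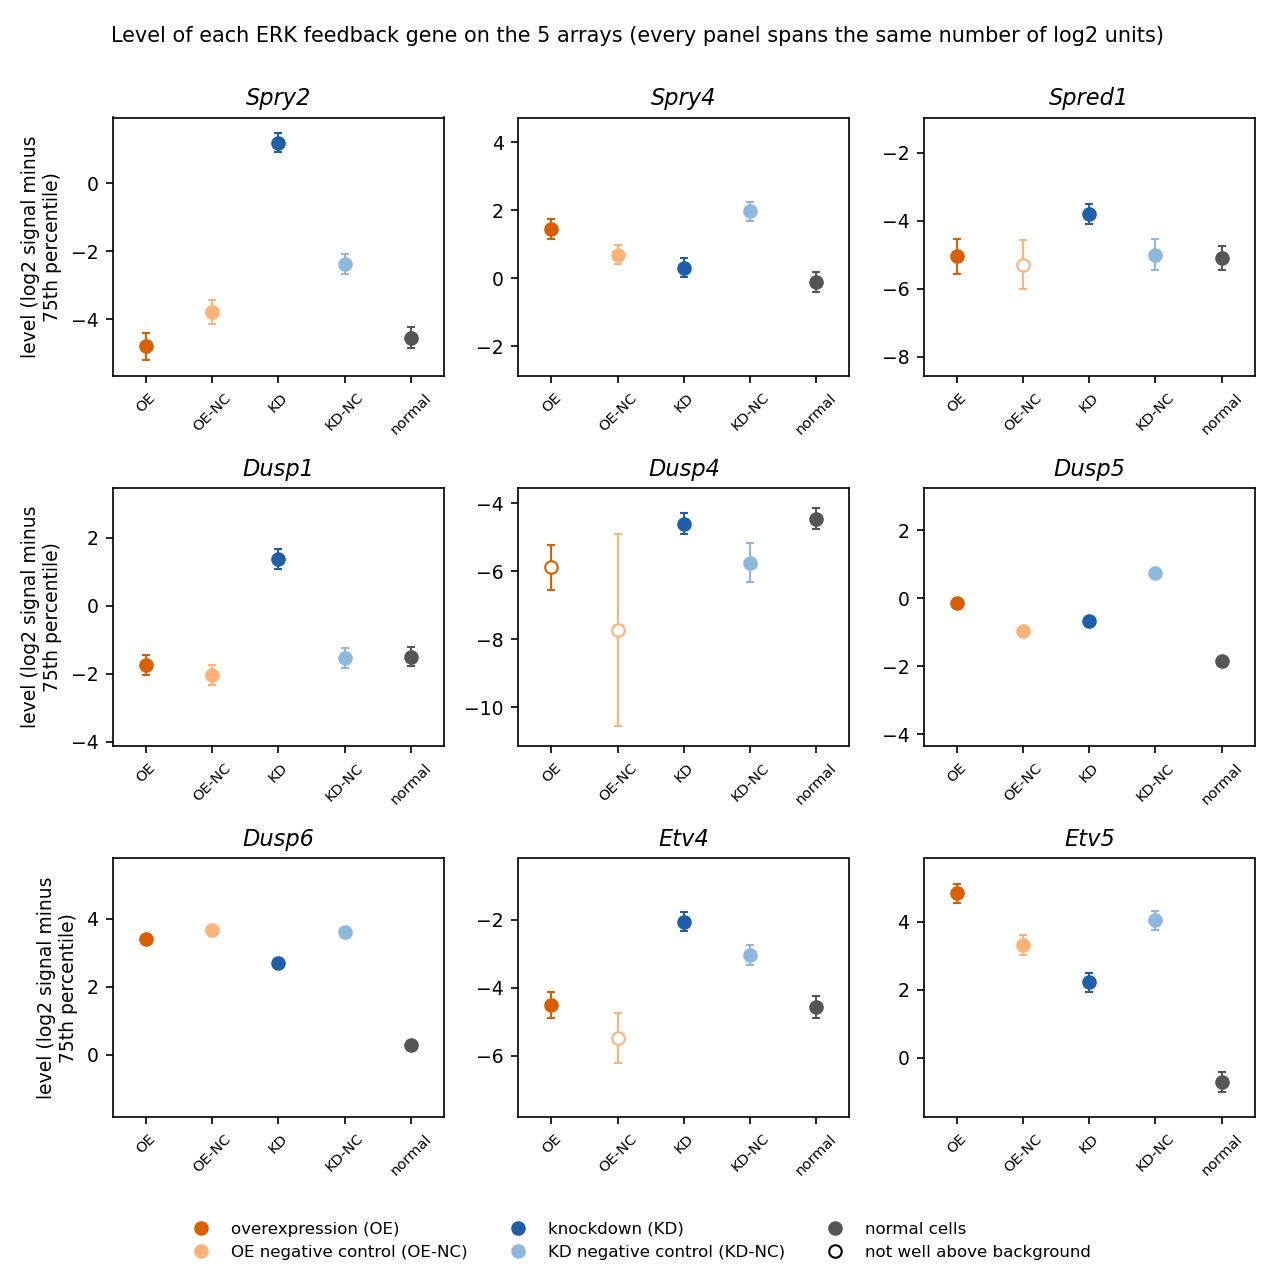
Level (log2 processed signal minus the array's 75th percentile) of the 9 genes on the 5 arrays, 1 point per array. Bars are 95% intervals from scanner error, open points are not well above background, and every panel spans the same number of log2 units. Spry2 and Dusp1 stand highest in knockdown cells, and Dusp6 and Etv5 stand lowest in normal cells.

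Spry2 encodes a Sprouty protein that binds adaptor and RAF components and limits receptor-driven ERK activity. Probe A_44_P253012 gave levels of 1.20 in knockdown cells and -2.37 in their control, -4.80 in overexpression cells and -3.79 in their control, and -4.54 in normal cells. The processed signals behind them were 3261 and 132.9, 23.9 and 40.3, and 57.8 in the same order. Knockdown cells stood apart from all other arrays. The difference from the knockdown control was 3.57 log2 units, or 11.9-fold (3.17 to 3.98 log2). It was 4.99 (31.8-fold) against the overexpression control and 5.74 (53.4-fold) against normal cells, with 3.97 to 5.36 and 4.66 to 6.64 over the settings. Among the 8 alternative settings the difference from the knockdown control lay between 3.28 and 3.88. The 3 control arrays themselves spanned 4.48-fold, with the knockdown control the highest of them.

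The overexpression array had the lowest Spry2 level of the 5. It was 2.02-fold below the overexpression control (log2 -1.01, interval -1.54 to -0.48) and was not called, and it was 5.39-fold below the knockdown control. Against normal cells the difference was -0.26, with an interval from -0.78 to 0.25 that includes 0, and its sign turned under quantile normalization (0.52), cyclic loess (0.27), the median (0.24), normexp (0.12) and the deposited table (0.51). Overexpression cells were thus below both negative controls, and the order of overexpression and normal cells is not settled. Knockdown and overexpression cells lay 64.1-fold apart, the widest range of the 9 genes over the 5 arrays.

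Spry4, a second Sprouty gene with a similar role, did not follow Spry2. By probe A_43_P10102 its levels were 0.31 in knockdown cells and 1.97 in their control, 1.45 in overexpression cells and 0.69 in their control, and -0.11 in normal cells. The knockdown control was the highest array and normal cells the lowest. Knockdown cells were 3.15-fold below the knockdown control (log2 -1.66, interval -2.06 to -1.26). They differed little from the other controls, by -0.38 (-0.78 to 0.02) from the overexpression control and 0.42 (0.02 to 0.82) from normal cells. Overexpression cells were 0.76 above their own control and 2.95-fold above normal cells.

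The other Spry4 probe, A_64_P063383, was well above background on all 5 arrays and did not show this pattern. Its levels were -0.95 in knockdown cells and -0.85 in their control, -0.48 in overexpression cells and -0.66 in their control, and -0.11 in normal cells. The difference between knockdown cells and their control was -0.09 (-0.49 to 0.31), and normal cells were here the highest array. With the mean of both probes, the Spry4 difference was -0.87 and was no longer called. Which transcript forms each probe reads was not examined.

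Spred1, a Sprouty-related protein that recruits the RAS inhibitor neurofibromin, was dim on all arrays. Its levels were -3.80 in knockdown cells and -5.01 in their control, -5.05 in overexpression cells, -5.30 in their control, where it was not well above background, and -5.10 in normal cells. Knockdown cells were the highest, and the other 4 arrays lay close together. The difference from the knockdown control was 1.21 (0.67 to 1.75), or 2.31-fold, and was not called. Against normal cells it was 2.47-fold, just under the threshold, which it passed under 5 of 8 alternative settings with values of 0.63 to 2.09 over all of them. Against the overexpression control it was 2.83-fold, a call kept under 2 of 7 alternative settings.

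Dusp1 encodes a nuclear phosphatase of the immediate early class that acts on the stress kinases p38 and JNK as well as on ERK. Probe A_43_P12927 gave levels of 1.38 in knockdown cells and -1.54 in their control, -1.75 in overexpression cells and -2.03 in their control, and -1.50 in normal cells. Signals were 3676 and 236.2, 198.3 and 135.8, and 475.1 in the same order. Only the knockdown array stood apart. It was 7.55-fold above the knockdown control (log2 2.92, interval 2.51 to 3.32), 10.6-fold above the overexpression control and 7.32-fold above normal cells. The 3 control arrays spanned 1.45-fold, and the overexpression array differed from none of them by more than 0.29, with intervals that all included 0. Under the alternative settings the difference from the knockdown control stayed between 2.76 and 3.23.

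Dusp4 and Dusp5 encode nuclear phosphatases induced by ERK activity. Dusp4 was near background: its levels were -4.60 in knockdown cells and -5.74 in their control, -5.88 and -7.72 in overexpression cells and their control, where neither was well above background, and -4.45 in normal cells. Knockdown cells were 2.20-fold above their control (log2 1.14, interval 0.49 to 1.79), which was not called, and -0.14 from normal cells. No difference could be read between overexpression cells and their control. Overexpression cells were at least 2.64-fold below normal cells, a call kept under 2 of 7 alternative settings.

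Dusp5 was read from replicate spots of 1 probe, A_42_P739860, 10 on each transduced array and 8 on the normal array. The levels were -0.66 in knockdown cells and 0.74 in their control, -0.13 in overexpression cells and -0.96 in their control, and -1.83 in normal cells. The SD between spots on an array lay between 0.02 and 0.21 log2 units. The spot values of knockdown cells (-1.18 to -0.45) overlapped those of the overexpression control (-1.21 to -0.82). Knockdown cells were 2.64-fold below their control (log2 -1.40, interval -1.53 to -1.28), close to the threshold. They differed by 0.30 from the overexpression control, a value that lay between -0.05 and 0.67 over the settings and turned negative with median scaling. The call against their own control was lost under cyclic loess, normexp and the percentile over probes above background on all arrays, with values between -1.56 and -1.09 over all settings. Between the negative controls themselves the difference was larger: the overexpression control was 3.25-fold below the knockdown control.

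Dusp6 encodes the cytoplasmic phosphatase that is most selective for ERK. Its probe, A_42_P668682, had 10 spots on each transduced array and 9 on the normal array, with an SD between spots of 0.04 to 0.11. The levels were 2.69 in knockdown cells and 3.61 in their control, 3.41 in overexpression cells and 3.66 in their control, and 0.30 in normal cells. The 4 transduced arrays lay together, well above normal cells. Knockdown cells were 1.89-fold below their control (log2 -0.92, interval -1.05 to -0.79) and 1.96-fold below the overexpression control, neither of which was called. The first of these varied between -1.08 and -0.38 with the setting. Overexpression cells were 0.25 below their own control (-0.37 to -0.12), and the negative controls differed from each other by 0.05 (-0.08 to 0.18).

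Etv4 and Etv5 encode ETS transcription factors of the PEA3 group. Etv4 levels were -2.06 in knockdown cells and -3.04 in their control, -4.50 in overexpression cells, -5.49 in their control, where it was not well above background, and -4.57 in normal cells. Knockdown cells were the highest and their control the next. They differed by 0.99 (0.58 to 1.40), or 1.98-fold, which was not called, whereas knockdown cells were at least 10.2-fold above the overexpression control and 5.72-fold above normal cells. Overexpression cells were 2.75-fold below the knockdown control and differed from normal cells by 0.07 (-0.42 to 0.56). Here again the negative controls were apart, the overexpression control at least 5.15-fold below the knockdown control.

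Etv5 was the only one of the 8 readable genes called between overexpression cells and their own control, where 2.71% of all genes were called. Probe A_44_P635089 gave levels of 4.84 in overexpression cells and 3.32 in their control, 2.22 in knockdown cells and 4.05 in their control, and -0.71 in normal cells. Overexpression cells were the highest and normal cells the lowest. The overexpression difference was 1.52 (1.12 to 1.92), or 2.88-fold, and the knockdown difference was -1.83 (-2.23 to -1.43), or 3.56-fold lower. Set against the opposite virus's control, the differences were smaller: overexpression cells were 0.79 above the knockdown control, and the difference between knockdown cells and the overexpression control was -1.10. Both of these changed sign with the mean of both probes, to -0.73 and 0.78.

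The other Etv5 probe, A_44_P263117, gave a different order. Its levels were -4.52 in overexpression cells, -5.31 in their control, where it was not well above background, -2.65 in knockdown cells and -2.27 in their control, and -5.06 in normal cells. The knockdown and knockdown control arrays were the high ones, and they differed by -0.39 (-0.79 to 0.02). Knockdown cells were 3.66-fold above overexpression cells by this probe and 6.17-fold below them by the first. Against the opposite virus's control, overexpression cells were 4.78-fold lower and knockdown cells 6.32-fold higher by this probe. With the mean of both probes, Etv5 was called in neither comparison, with a knockdown difference of -1.11. The knockdown call was also lost under cyclic loess, with -1.29, and normexp, with -1.28. The array files used here do not tell which transcript or exon each probe reads.

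**Figure D2:**
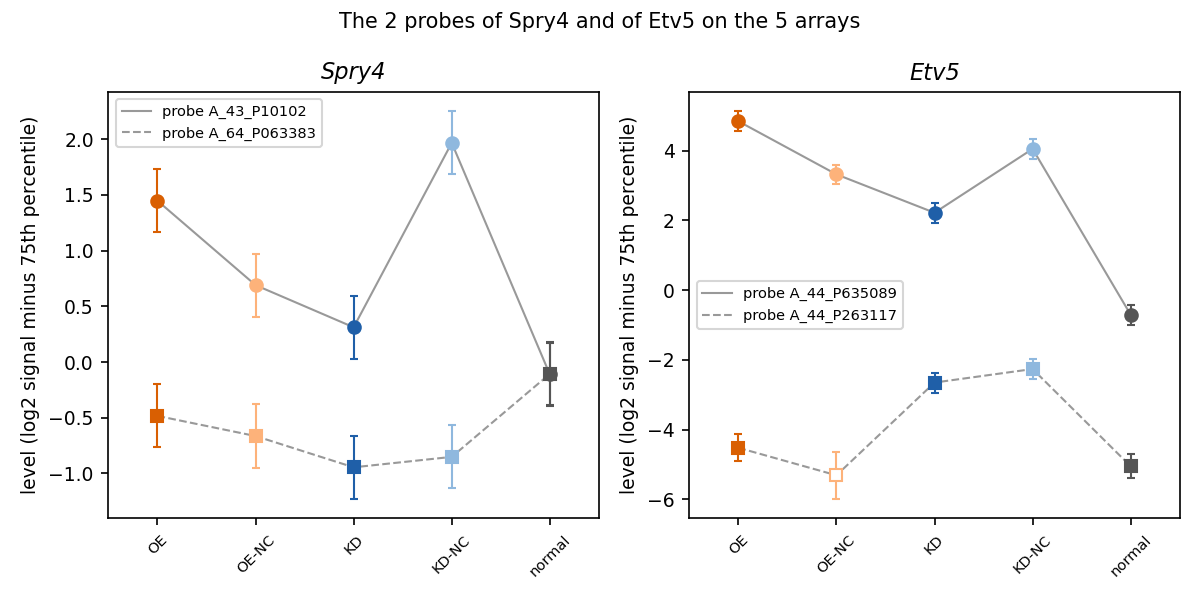
Levels (log2 processed signal minus the array's 75th percentile) of both probes of Spry4 and of Etv5 on the 5 arrays, with 95% intervals from scanner error; lines join points of 1 probe, and the open square is not well above background. The first Spry4 and Etv5 probes are lower in knockdown cells than in their control, by -1.66 and -1.83, and the other probes differ by -0.09 and -0.39.

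Against their own control, overexpression cells had 1 of the 8 readable genes called. The median difference of the 8 genes was 0.52, against 0.00 over 11851 genes, and no member was lower by 2.5-fold. Against the knockdown control 2 of 9 were called, both lower (Spry2 and Etv4), where 4.08% of all genes were called in either direction. Both calls were lost with normexp, where the differences were -1.26 and -0.64. No member was called against all 3 control arrays, where 0.367% of all genes were. By any amount, Etv5 was above all 3 controls, as were 14.7% of all genes, and Spry2 below all 3, as were 13.7%. Neither position is settled, since Etv5 against the knockdown control turned with the mean of both probes and Spry2 against normal cells turned under 5 settings.

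**Figure D3:**
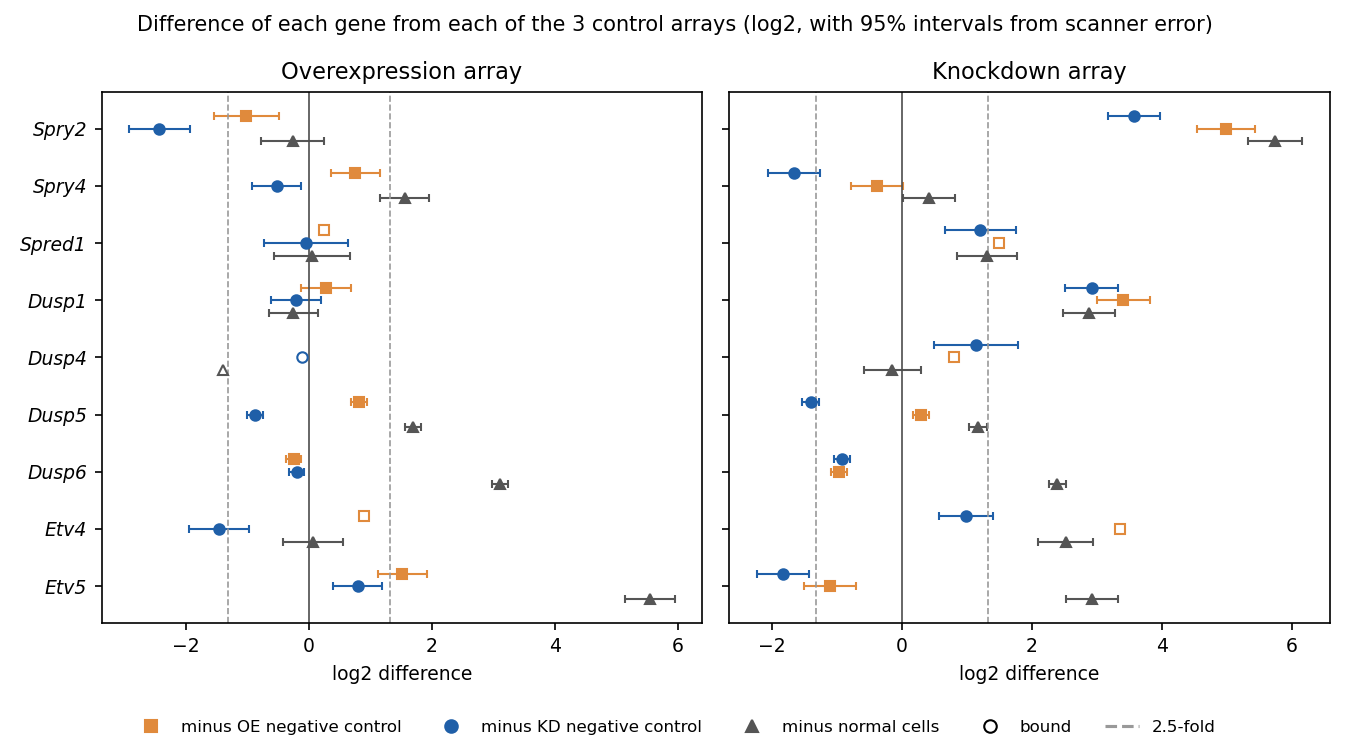
Log2 difference of the overexpression array (left) and the knockdown array (right) from each of the 3 control arrays for the 9 genes. Bars are 95% intervals from scanner error. Open symbols, labelled bounds, have a dimmer value not well above background, and dashed lines mark 2.5-fold. In knockdown cells Spry2 and Dusp1 lie beyond 2.5-fold on the right against all 3 controls, and in overexpression cells no gene lies beyond it against all 3.

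The choice of control mattered for most of the other members. Against the overexpression control, 4 of the 9 genes were called in knockdown cells, all higher (Spry2, Spred1, Dusp1 and Etv4), where 28.8% of all genes were called. Against normal cells, 5 were called, all higher (Spry2, Dusp1, Dusp6, Etv4 and Etv5), where 30.5% were. Spry4, Dusp5 and Etv5 were called lower against the knockdown control and not against the other 2 control arrays. By the probes used for these calls, all 3 had a higher level in the knockdown control than in the overexpression control and normal cells. The other Spry4 probe had its highest control level in normal cells. These comparisons share the knockdown array, so their values are not independent of each other.

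Between the negative controls, which carry no Tmub1 vector, 3 of the 9 genes were called, where 8.53% of all genes were. The overexpression control was lower in each: Etv4 at least 5.15-fold, Dusp5 3.25-fold and Spry2 2.67-fold. The other Etv5 probe was 8.27-fold lower, with the overexpression control not well above background, while the first differed by -0.73. Spry4 missed the threshold at 2.42-fold lower by its first probe, and the other probe differed by 0.19. The median over the 8 genes with a value was -1.004, against -0.0022 over all genes. For Dusp5 this difference was larger in size than that between knockdown cells and their control.

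All 4 transduced arrays were at least 2.5-fold above normal cells for Dusp6 and Etv5, 2 of the 9 genes, as for 2.79% of all genes. Dusp6 was 8.67-fold higher in overexpression cells, 10.3-fold in their control, 5.25-fold in knockdown cells and 9.93-fold in their control. Etv5 by its first probe was 46.9-fold, 16.3-fold, 7.61-fold and 27.1-fold higher in the same order. By the other Etv5 probe, knockdown cells and their control were 5.28-fold and 6.92-fold higher, and overexpression cells differed by 0.53 (0.02 to 1.04) and were not called. By that probe the overexpression control, not well above background, differed by -0.26 from normal cells and was not called. Other genes of the pathway, from the lists below, also split the arrays this way. The receptor Pdgfra was at least 24.1- to 40.5-fold higher on the transduced arrays and not well above background in normal cells. The output genes Egr2 and Fosl1 were 7.19- to 9.71-fold and 3.48- to 8.52-fold higher. The feedback paralog Dusp2 was called lower on each transduced array. The knockdown control had the most members called against normal cells, 6 of 9 and all higher, where 16.5% of all genes were called. Overexpression cells had 4 higher and 1 lower, where 16.6% were, and the overexpression control had 2 higher, where 17.4% were.

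Some cell type markers split the arrays in the same way. Of 5 listed macrophage and leukocyte markers, 4 were matched, and their summed level lay between 2.33 and 2.97 on the 4 transduced arrays and was -0.11 on the normal array. Cd74 had levels of 1.01 to 1.61 on transduced arrays and -6.09 in normal cells, and Ptprc had -3.73 to -3.06 and -8.92, not well above background in normal cells. Cd14 was 2.68- to 6.52-fold higher on the transduced arrays, whereas Adgre1 was not called on any of them, with levels of -2.56 to -1.78 against -2.41 in normal cells. The summed endothelial level was 0.46 to 2.03 on transduced arrays and 1.83 in normal cells, but Pecam1 was at least 14.5-fold higher on each transduced array. Of the other endothelial markers only Kdr was called, 3.78-fold lower in the knockdown control. The hepatocyte marker Tf was 9.15- to 19.4-fold higher on each transduced array. Serpina1 and Hnf4a were lower on each, by -1.05 to -1.81 and by -0.27 to -1.22. Of these, only Serpina1 in knockdown cells was called. Alb was called higher and Afp lower in overexpression cells and in the knockdown control. The part of these differences, and of the scan day, in the higher Dusp6 and Etv5 levels was not tested.

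Around these genes, lists of the same pathway were set beside the share of all genes called in knockdown cells, 18.5%. Among 14 receptors upstream, the insulin-like growth factor receptor Igf1r was 3.76-fold and the TAM receptor Axl 3.40-fold higher than in the knockdown control, and the platelet-derived growth factor receptor Pdgfrb was 4.19-fold lower. Pdgfrb is also among the mesenchymal markers. The other 11 were not called, and the list's median was -0.02. Igf1r and Axl were also called higher against the overexpression control and against normal cells. Pdgfrb was called against neither, with -1.18 and 0.40. Among 28 cascade genes, 3 were higher: the phosphatase Ptpn11 at 3.71-fold, the adaptor Gab1 at 3.36-fold and Pea15, which holds ERK in the cytoplasm, at 2.83-fold. The ERK-activated kinase Mknk2 was 4.92-fold and the RAS exchange factor Sos1 2.90-fold lower. The cascade's median was -0.19, near the -0.21 of all genes. Against the overexpression control and normal cells, Gab1 was again called higher and Mknk2 lower. Sos1 was called lower against the overexpression control but not against normal cells (-1.12). Ptpn11 (0.90 and 0.73) and Pea15 (1.298 and 1.300) were called against neither.

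Of the 21 other ERK output genes that could be called, 3 were higher in knockdown cells than in their control and none lower. This share is not above the 18.5% of all genes. The 3 were the EGF receptor ligand Hbegf at 14.6-fold, the immediate early factor Egr1 at 5.13-fold and the ETS factor Elk3 at 2.77-fold, and the median was 0.40. All 3 were also called higher against the overexpression control and against normal cells. Among 10 callable feedback paralogs, Dusp14 was 4.64-fold and Dusp16 2.56-fold higher, while Dusp10, a phosphatase of the stress kinases, was 5.40-fold lower. Dusp14 was also called against the overexpression control but not against normal cells (0.91), and Dusp16 against neither (1.22 and 0.98). Of 8 callable stress kinases, Map2k6, Mapk9 and Map2k4 were 3.51-, 3.23- and 3.01-fold higher, and Mapk14, which encodes p38 alpha, was 2.62-fold lower. Mapk9 was called higher against the other control arrays as well. Map2k6, Map2k4 and Mapk14 kept their calls against the overexpression control but not against normal cells (0.57, 1.05 and -1.05).

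In overexpression cells, no receptor of 14 and no cascade gene of 27 was called against the overexpression control, where 2.71% of all genes were. Of 19 other output genes, Phlda1 was 5.99-fold, Elk3 2.64-fold and Plaur, the urokinase receptor, 2.61-fold higher, and the secreted neuropeptide precursor Vgf was 3.72-fold lower. For the 3 higher genes the overexpression control was itself 9.62-, 3.38- and 3.49-fold below the knockdown control. Against the knockdown control, overexpression cells differed by -0.68, -0.35 and -0.42, none of which was called. Dusp10 was 3.34-fold higher than in the overexpression control but differed by -0.81 from the knockdown control, and the overexpression control was 5.84-fold below the knockdown control. In knockdown cells its call was likewise against their own control, and they differed by 0.11 from the overexpression control and by -0.26 from normal cells, neither called. Mapk10 was at least 4.99-fold higher, with a level of -3.09 in overexpression cells and values not well above background on the other 4 arrays. List medians lay between -0.10 and 0.11.

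**Figure D4:**
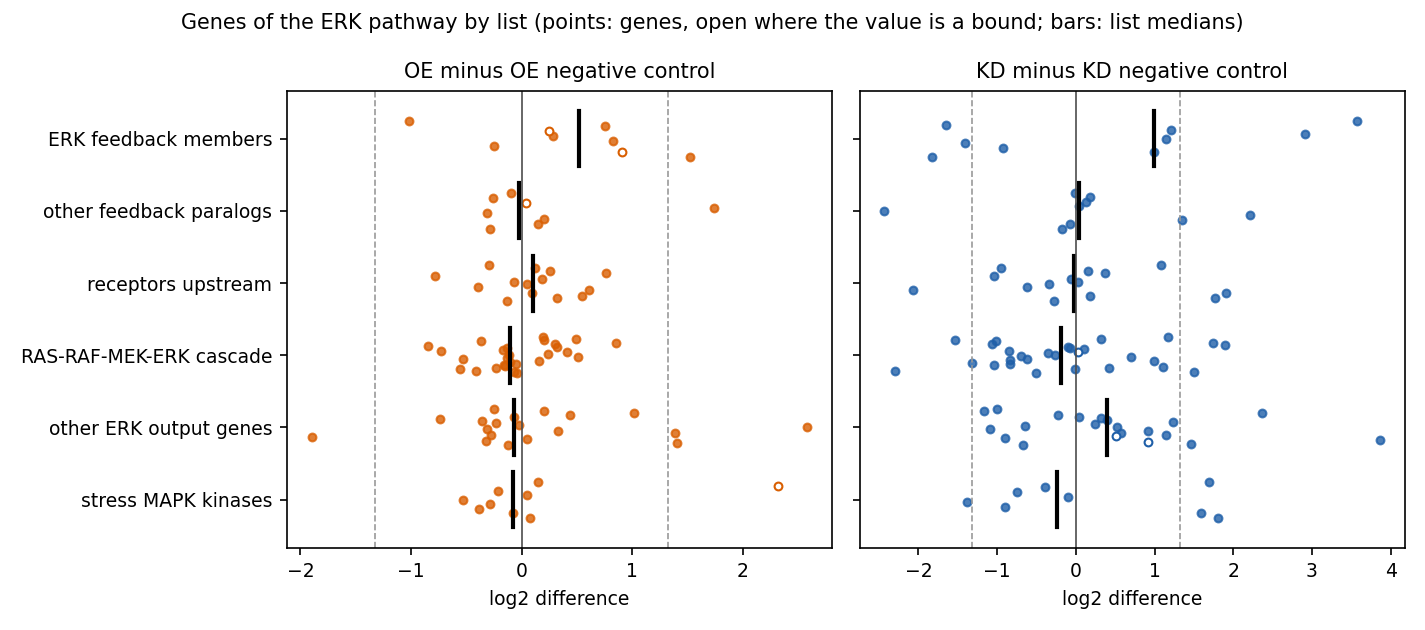
Log2 difference of each gene in the ERK feedback list and 5 lists of the same pathway, for overexpression minus its control (left) and knockdown minus its control (right). Points are genes, open where the dimmer value was not well above background. Black bars are list medians and dashed lines mark 2.5-fold. The knockdown medians are 0.99 for the ERK feedback genes, whose values range from -1.83 to 3.57, and between -0.24 and 0.40 for the other lists.

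Spry2 had the widest range over the 5 arrays, so the genes with the most similar pattern to it were listed. Likeness was the root mean square distance of array-centred levels over the 5 arrays, among 10675 genes above background on all of them. The nearest were Uap1, an enzyme of UDP-GlcNAc synthesis, at 0.50 log2 units, the stress-induced Sesn2 at 0.84, the amino acid transporter Slc7a5 at 0.85, the membrane protein Stom at 0.88 and Sec61a1, a subunit of the endoplasmic reticulum translocon, at 0.91. Uap1 had levels of 0.27 in knockdown cells and -2.30 in their control, -4.18 in overexpression cells and -3.75 in their control, and -4.46 in normal cells. All 5 were highest in knockdown cells and next highest in the knockdown control, as was Spry2, by whose pattern they were selected. Among the members well above background on all arrays, Dusp1 was nearest to Spry2 at 1.16, followed by Dusp5 at 2.19, Dusp6 at 2.36, Spry4 at 2.41 and Etv5 at 2.95. The distances rest on 5 arrays and describe them only.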

How the data were processed

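Total RNA of 5 cell groups was measured on 5 one-colour Agilent arrays, 1 per group. The deposited scanner files give intensity per spot, background-subtracted and detrended by the scanner software but not scaled between arrays, per the file headers. Those headers name Agilent Feature Extraction 11.0.1.1, and the submitters' processing notes name 9.1. The authors' deposited table of processed values is on a log2 scale, shown by correlations above 0.998 with the scanner values; its 5 columns have a median of 6.685 each. The normalization software was not given in the sources used here.

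Spots marked as poor were left out, 419 to 731 of 42877 per array, replicate spots were averaged, and the 75th percentile of each array was subtracted from log2 signals (Python 3.11.15, numpy 2.4.6, pandas 2.3.3). Probes were named through RefSeq, 18005 with 1 gene and 12361 unnamed. For a gene with several probes, the probe of highest mean level was taken. Because the array design uses an older build than GRCr8, probe positions are left out.

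With 1 array per group no p-value was computed, and the p threshold of the series' design text could not be applied; its 2.5-fold was used. A dim value was set to the higher of itself and the lowest value that the same array had well above background. This makes the difference a bound where the dim value was raised. The number of arrays limits the precision. Calling was tested on simulated data, a copy of the knockdown control array with added noise and planted 4-fold changes. That checks the calling rule only and does not cover differences between separately prepared arrays.

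Named genes were all members, up to 4 called genes per list and direction, and the 5 genes nearest to the member with the widest range. The members and lists were chosen with earlier results of these data known, and the motifs with the promoter sequences in view, so none of them supports a result independently. Alternatives were quantile normalization and cyclic loess (limma 3.58.1 in R 4.3.3), a percentile over probes above background on all arrays, the median, normexp with an offset of 50, the deposited table, the mean of all probes, both values above background, folds of 2 and 4, and leaving out a control array. Normexp used the median pixel signal in place of the planned mean.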

Additional observations from a re-analysis of the deposited data

Results flagged for a closer look

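Etv5, by its first probe, moved in opposite directions with the Tmub1 viruses, each against its own negative control. The log2 difference was 1.52 in overexpression cells and -1.83 in knockdown cells, both past 2.5-fold. Each value compares 1 array with 1 array, and the difference between them was not tested. By the other Etv5 probe, the values were 0.79, with the overexpression control not well above background, and -0.39, and neither was called. The knockdown call was lost under cyclic loess and normexp, and both calls with the mean of both probes. Tmub1 itself differed by 0.07 between overexpression cells and their control. Dusp10, not a member, was also called in opposite directions (1.74 and -2.43), and its negative controls lay 5.84-fold apart.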

How the results depend on the processing

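No paired analysis was possible because each group had 1 array and every label gives replicate 1. In knockdown cells against their control, 5 members were called, and 3 with cyclic loess, with normexp or with the mean of all probes, and 2 at 4-fold. The main setting had 2 higher and 3 lower. With the percentile over probes above background on all arrays, 4 were higher and 2 lower, and at 2-fold 4 were higher and 3 lower. In overexpression cells against their control, 1 was called, and 0 with the mean of all probes or at 4-fold and 2 at 2-fold. Between the negative controls, 3 were called, and 1 at 4-fold. Against all 3 controls, 0 were called in overexpression cells, and 1 without the knockdown control array, namely Etv5. Knockdown against all 3 controls gave 2 or 3 members under the other settings, and all 4 transduced arrays against normal cells gave 2 or 3. Of 417 recomputed member differences, 387 kept their side of the threshold, and no called difference changed sign.

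Scaling moved the balance of all genes. For knockdown minus its control, 45.7% of called genes were higher in the main setting, 56.0% with cyclic loess, 71.2% with the percentile over probes above background on all arrays and 33.5% with the median. The median over all genes lay between -0.38 and 0.11 over the settings. All 9 members kept their sign in this comparison under each setting. For overexpression minus its control, 62.9% of called genes were higher, 50.2% with the median and 51.7% with the deposited table. Normexp called 630 genes higher and 567 lower in knockdown cells and 37 and 29 in overexpression cells, against 1079 and 1284 and 202 and 119 in the main setting. At 4-fold these counts were 382 and 302, and 46 and 28; at 2-fold they were 1716 and 2312, and 459 and 260. Spred1, Dusp4 and Etv4 lie near background on some arrays, where differences are bounds or rest on a reading not well above background. The lack of replicate arrays limits every comparison, and several calls also depend on scaling or on the probe read.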
